A study of Caenorhabditis elegans with 36 samples.

Results

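The genes described here are 10 of the 27782 gene identifiers in a table of raw counts from whole Caenorhabditis elegans worms: skn-1, wdr-23, gcs-1, trxr-1, prdx-2, sod-1, sod-2, ctl-1, ctl-2 and cdr-1. They were chosen by symbol, as the oxidative stress regulator SKN-1, its repressor and a set of antioxidant and detoxification enzymes, and each symbol matched 1 identifier. The study asked how terbinafine, an antifungal inhibitor of squalene epoxidase, and miglustat, an inhibitor of glucosylceramide synthase, act on the worm in the setting of mitochondrial stress. The 36 libraries formed 9 groups with 4 biological replicates each, all of the wild-type strain N2, raised from the first larval stage on Escherichia coli HT115 plates with 10 µM 5-fluorouracil and collected as day 1 adults, about 3000 worms to a plate. Batch 1 comprised worms given 31.5 µM terbinafine, 250 µM miglustat, 500 µM BAY2402234 or 500 µM brequinar, worms on dhod-1 RNAi that also received DMSO, and controls given DMSO, the solvent. Batch 2 comprised its own DMSO group, doxycycline at 50 µM and teriflunomide at 250 µM. In every group but dhod-1 RNAi the bacteria carried the empty vector. The gene dhod-1 encodes dihydroorotate dehydrogenase, which makes pyrimidines in mitochondria and is the target of BAY2402234, brequinar and teriflunomide. Doxycycline, an antibiotic, blocks translation in mitochondria. The 5-fluorouracil, itself a pyrimidine analogue, was shared by all groups including both controls, so no group shows the worms without it.

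SKN-1 is the worm counterpart of the mammalian NRF transcription factors. In the embryo it specifies the fate of the cells that form the gut and pharynx, and in the adult intestine it turns on genes of glutathione synthesis and conjugation under oxidative or electrophilic stress. WDR-23, a substrate receptor of a CUL-4 and DDB-1 ubiquitin ligase, binds SKN-1 and directs its degradation, so that much of the control of SKN-1 lies at the protein level, which RNA-seq does not measure. Superoxide is converted to hydrogen peroxide by superoxide dismutases, and the peroxide is then removed by catalases and by peroxiredoxins that depend on thioredoxin.

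Total counts per library lay between 19253276 and 20455600. Expression is given as CPM, the count scaled to the size of its library, with library sizes adjusted by TMM separately in each batch, and group values are mean ± SD over n = 4 libraries. Changes are given as log2 fold changes, each with its SE (standard error), and a gene is said to have risen or fallen only where its adjusted p from edgeR's quasi-likelihood test was below 0.05. Levels were not compared by test across the batches. The knocked-down gene dhod-1 stood at 58.1 to 78.5 CPM in the RNAi libraries and 79.8 to 90.3 CPM in the DMSO libraries of batch 1, a log2 difference of -0.28 (SE 0.08, edgeR's adjusted p = 0.00482). Without RNAi it stood as low, at 56.4 to 68.2 CPM with BAY2402234 and 52.6 to 56.9 CPM with doxycycline, so its level does not set the RNAi group apart. Whether reads from the fed double-stranded RNA entered the count was not tested. Replicates 3 and 4 of dhod-1 RNAi stood apart from replicates 1 and 2. Their summed level of 10 oocyte and germ line markers was 6062 and 4421 CPM, against 10160 and 10200 CPM. In batch 2 the sperm markers stood at 557.6 CPM in DMSO replicate 1 and between 68.8 and 83.1 CPM in the other 3. The RNA came from whole worms, and in such bulk samples fewer cells of a type and less RNA per cell cannot be told apart.

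Expressed per kilobase of exon in the DMSO libraries of batch 1, prdx-2 had the highest level of the 10 genes, 745.1 CPM per kilobase. The superoxide dismutases followed, with 198.9 for sod-1 and 132.6 for sod-2. In the middle stood skn-1 at 81.6, trxr-1 at 61.6, gcs-1 at 47.0, wdr-23 at 31.9 and ctl-2 at 31 CPM per kilobase. The lowest were ctl-1 at 6.67 and cdr-1 at 1.32 CPM per kilobase. All 10 genes passed the filter on low counts in both batches.

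Against the DMSO of their batch, 0 of the 10 genes passed the test with terbinafine and 0 with miglustat, where 0.898% and 0.581% of all genes did. By unadjusted p below 0.05, 3 of the 10 genes did with terbinafine and 3 with miglustat, beside 2002 and 1438 of the 15142 genes tested. DESeq2 called 0 of them with terbinafine and 1, ctl-2, with miglustat. With BAY2402234, 3 of the genes rose and 4 fell, while 46.8% of all genes changed, 23.2% upward and 23.6% downward. With brequinar 1 rose and 1 fell (15.7% of all genes, 5.03% upward and 10.6% downward). With dhod-1 RNAi 3 rose and 3 fell (61.4% of all genes, 31.3% and 30.1%). With doxycycline 1 rose and 5 fell (84.9% of all genes, 44.8% and 40.2%), and with teriflunomide 5 rose and 0 fell (38.8% of all genes, 19% and 19.7%). For most treatments the number of genes called was of the order that the share over all genes gives for 10 genes, and the description below is of the single genes. The median log2 fold change of the 10 genes was 0.04 with terbinafine, 0.00 with miglustat, -0.07 with BAY2402234, 0.04 with brequinar and 0.01 with dhod-1 RNAi. The medians over all genes in these comparisons were 0.01, 0.01, 0.10, 0.01 and -0.02. In batch 2 the median of the 10 genes was -0.05 with doxycycline and 0.20 with teriflunomide, beside 0.23 and -0.02 over all genes.

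**Figure D1:**
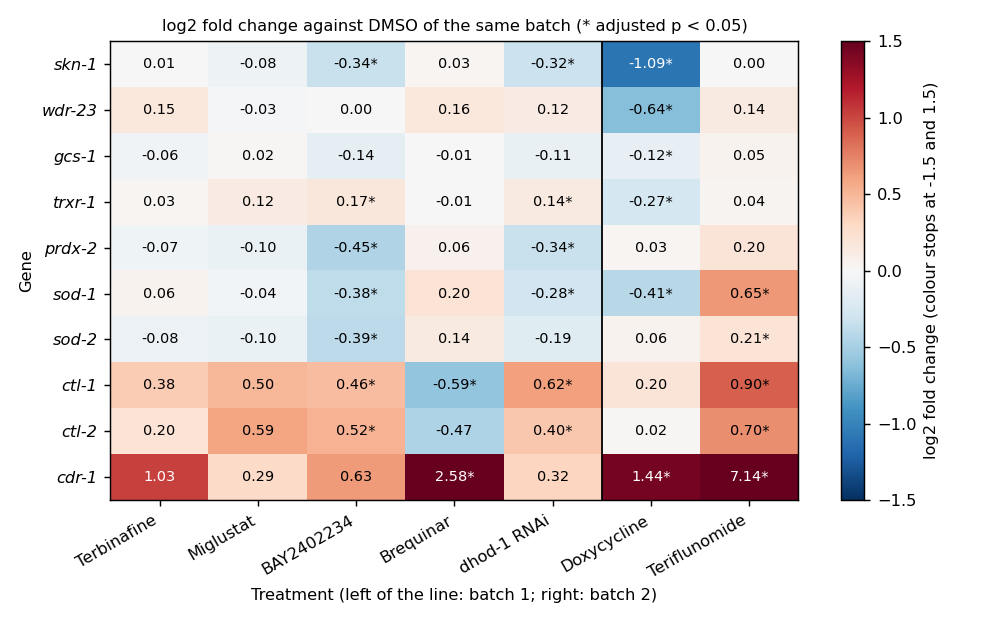
log2 fold change of each of the 10 genes (rows) in each treatment against the DMSO libraries of its batch (columns), with an asterisk where the edgeR's adjusted p was below 0.05. The largest values are those of cdr-1, 7.14 with teriflunomide and 2.58 with brequinar, and the lowest is that of skn-1 with doxycycline, -1.09.

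The regulator itself, skn-1 (WBGene00004804; chromosome IV, 5651039 to 5660384, minus strand, build WBcel235), was lower with doxycycline, BAY2402234 and dhod-1 RNAi. In the doxycycline libraries it stood at 116, 98.6, 121 and 113 CPM, against 237, 241, 253 and 227 CPM in the DMSO libraries of batch 2. Every doxycycline library was thus below every DMSO library. The means were 112.2 ± 9.75 and 239.6 ± 10.7 CPM, and skn-1 fell by 1.09 on the log2 scale (SE 0.07, edgeR's adjusted p = 1.54e-08). The fall held in all alternatives, between -1.31 and -0.79. It was read beside a median of 0.23 over all genes, which itself moved between 0.02 and 0.31 with the scaling. Markers of the oocyte and germ line moved in the same comparison. Of the 10 markers 9 fell, with a median log2 fold change of -4.91, and their summed level was 581.3 to 850 CPM with doxycycline and 7929 to 11030 CPM with DMSO, with no marker at 0 in any library. The part of this tissue in the fall of skn-1 was not tested.

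In BAY2402234 libraries skn-1 stood at 174, 196, 194 and 202 CPM, and in dhod-1 RNAi libraries at 208, 206, 182 and 176 CPM. The DMSO libraries of batch 1 held 239, 255, 241 and 231 CPM, above all 8 of these. The falls were -0.34 (SE 0.07, edgeR's adjusted p = 0.000458) and -0.32 (SE 0.07, edgeR's adjusted p = 0.000255). Both passed the test under every alternative, at -0.36 to -0.17 for BAY2402234 and -0.37 to -0.22 for dhod-1 RNAi. The germ line markers were lower here too: 7 of 10 fell with BAY2402234 and 10 of 10 with dhod-1 RNAi. Their sums were 7833 to 9087 and 4421 to 10200 CPM, against 10970 to 11720 CPM in DMSO, and their part in these falls was not tested. With brequinar skn-1 was at 246.5 ± 16.7 CPM, with a log2 difference of 0.03 (95% interval -0.11 to 0.16). With teriflunomide it was at 240.4 ± 12.4 CPM, with a difference of 0.00 (95% interval -0.14 to 0.15). The gene shares 41 bp with csn-5 on the opposite strand, and whether the counting used strand was not given in the sources used here.

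The repressor wdr-23 (WBGene00008419; chromosome I, 7595776 to 7602221, plus strand) fell in 1 comparison. With doxycycline it stood at 69.7, 66.7, 65.5 and 72.7 CPM, against 95.4, 109.5, 109.3 and 112.9 CPM with DMSO. The groups did not overlap, and the log2 fold change was -0.64 (SE 0.06, edgeR's adjusted p = 6.82e-07; -0.85 to -0.33 over the alternatives). The germ line markers fell in the same comparison, as given for skn-1, and their part in this fall was not tested. With brequinar the value was 0.16 (SE 0.06, edgeR's adjusted p = 0.0501), and DESeq2 and 3 other alternatives in edgeR put it past the threshold. With BAY2402234 the direction depended on the scaling: the log2 fold change was -0.00 with TMM, and wdr-23 was called higher with library totals only, at 0.16.

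**Figure D2:**
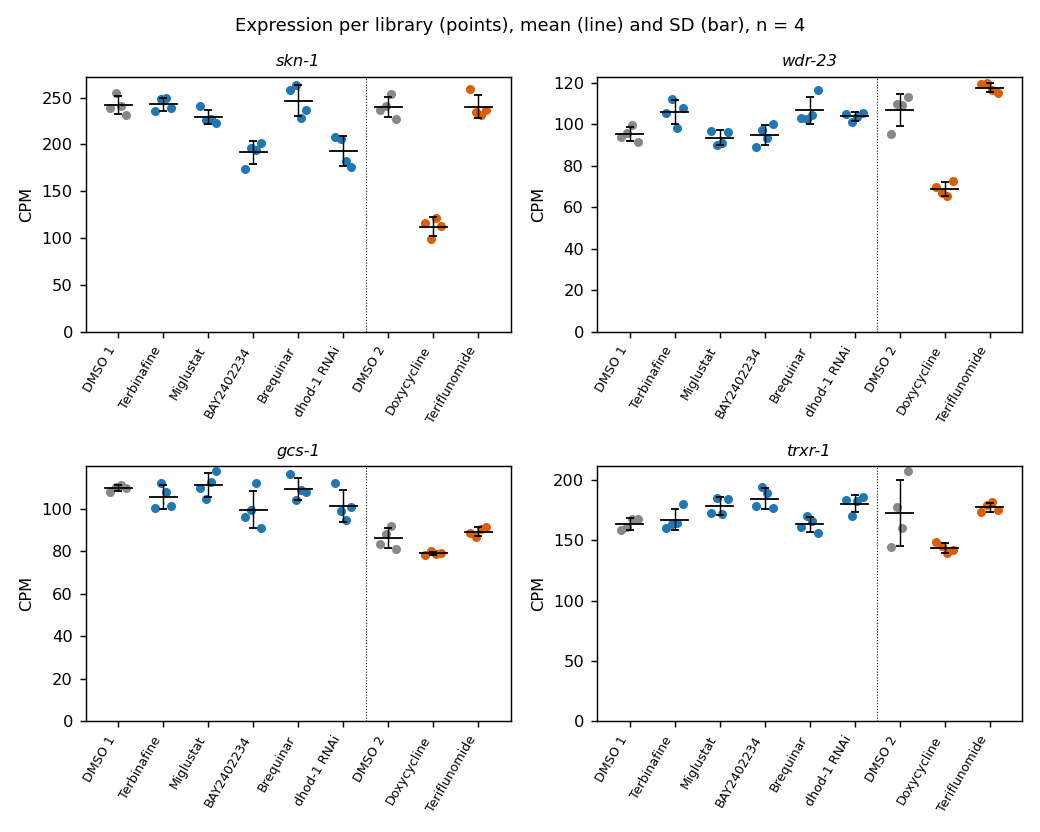
CPM of skn-1, wdr-23, gcs-1 and trxr-1 in each library (points), with the mean (line) and SD (bar) of the 4 libraries of each group. Grey points are DMSO, blue points the treatments of batch 1 and orange points those of batch 2, with the batches divided by the dotted line. The 4 doxycycline libraries lie lowest for skn-1 (98.6 to 121 CPM) and wdr-23 (65.5 to 72.7 CPM).

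The classical SKN-1 target gcs-1 (WBGene00001527; chromosome II, 9035562 to 9038301, minus strand) encodes the catalytic subunit of glutamate-cysteine ligase, the rate-limiting enzyme of glutathione synthesis. It moved least of the 10 genes, with log2 fold changes between -0.14 and 0.05 over the 7 comparisons with DMSO. Terbinafine libraries held 100.4, 112, 108 and 101 CPM and miglustat libraries 109.9, 104, 113 and 118 CPM, on both sides of the DMSO libraries at 108, 110.1, 111 and 109.8 CPM. The 95% interval of the log2 difference was -0.19 to 0.08 for terbinafine and -0.12 to 0.15 for miglustat. With BAY2402234 it was -0.28 to -0.01 (edgeR's adjusted p = 0.0797), with dhod-1 RNAi -0.25 to 0.02, with brequinar -0.14 to 0.13 and with teriflunomide -0.05 to 0.16. In doxycycline the 4 libraries lay between 78.3 and 79.9 CPM, below the DMSO libraries at 80.9 to 91.7 CPM. The difference of -0.12 (SE 0.05, edgeR's adjusted p = 0.0291) passed the test. The median over all genes in this comparison was 0.23, in the other direction. Germ line markers fell in the same comparison, as given for skn-1, and their part was not tested. The call was lost without DMSO replicate 2 or 3 or without any 1 of the doxycycline libraries, and with the stricter filter the value turned to 0.18 and was called higher.

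Thioredoxin reductase, trxr-1 (WBGene00015553; chromosome IV, 7011954 to 7016586, plus strand), reduces thioredoxin at the expense of NADPH. Its libraries stood at 178, 194, 189 and 176 CPM with BAY2402234 and 184, 170.3, 182 and 186 CPM with dhod-1 RNAi. The DMSO libraries, at 158, 161, 168 and 168 CPM, were all lower. The rises were small, 0.17 (SE 0.05, edgeR's adjusted p = 0.0136) and 0.14 (SE 0.05, edgeR's adjusted p = 0.0298). The first was lost without BAY2402234 replicate 2 (0.14). The second was lost without any 1 of the DMSO libraries, without dhod-1 RNAi replicate 1, 3 or 4, with DESeq2 and with DESeq2 size factors. With doxycycline trxr-1 fell by 0.27 (SE 0.09, edgeR's adjusted p = 0.0155), from 172.6 ± 27.1 to 143.6 ± 3.93 CPM. The DMSO libraries were spread from 144.4 to 207.7 CPM and overlapped the treated ones. This call was lost with library totals only and when doxycycline and DMSO were fitted alone, and the value was 0.04 with the stricter filter. Germ line markers fell in these comparisons, as given for skn-1, and their part in the changes of trxr-1 was not tested.

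Peroxiredoxin prdx-2 (WBGene00006434; chromosome II, 5378195 to 5379631, plus strand) reduces hydrogen peroxide with electrons from thioredoxin. It fell with BAY2402234, to 412, 394, 402 and 442 CPM from 585, 609, 523 and 537 CPM in DMSO. With dhod-1 RNAi it stood at 478, 501, 428 and 378 CPM. All 8 libraries were below the DMSO libraries, and the log2 fold changes were -0.45 (SE 0.08, edgeR's adjusted p = 0.000243) and -0.34 (SE 0.08, edgeR's adjusted p = 0.00129). Without both replicates 3 and 4 of dhod-1 RNAi, a choice made with earlier results of these data known, the second was -0.20 and did not pass the test (edgeR's adjusted p = 0.0527). Teriflunomide libraries lay at 638 to 668 CPM, within a narrow range, but the DMSO libraries of batch 2 ran from 458 to 654 CPM. The difference of 0.20 did not pass the test (edgeR's adjusted p = 0.108). Without DMSO replicate 1 or 3 it did, at 0.24 and 0.27. With doxycycline the difference was 0.03 (SE 0.09), again with overlapping libraries. Germ line marker sums were lower with BAY2402234 and dhod-1 RNAi, as given for skn-1. Their part in the falls of prdx-2 was not tested.

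The main cytosolic superoxide dismutase, sod-1 (WBGene00004930; chromosome II, 6972706 to 6973887, minus strand), a copper and zinc enzyme, moved in opposite directions in the treatments of batch 2. With teriflunomide it stood at 199, 219.5, 204 and 229 CPM, against 128, 135, 153 and 128 CPM in DMSO. With doxycycline it stood at 102, 108, 97.8 and 100.3 CPM. The 3 groups did not overlap. sod-1 rose with teriflunomide (0.65, SE 0.07, edgeR's adjusted p = 4.18e-05; 0.56 to 0.71 over the alternatives) and fell with doxycycline (-0.41, SE 0.07, edgeR's adjusted p = 0.000143). The fall was -0.11 and did not pass the test with the stricter filter. The direct comparison of doxycycline with teriflunomide gave -1.06 (SE 0.07, edgeR's adjusted p = 2.92e-08). Germ line marker sums were 581.3 to 850 CPM with doxycycline, 8024 to 9291 CPM with teriflunomide and 7929 to 11030 CPM in DMSO. Intestine and muscle marker sums were higher than in DMSO with both treatments. The part of these tissues in the changes of sod-1 was not tested.

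In batch 1 sod-1 fell with BAY2402234, at 106, 114, 128 and 90.1 CPM against 145, 130.5, 147 and 150.4 CPM in DMSO (-0.38, SE 0.11, edgeR's adjusted p = 0.00591). With dhod-1 RNAi it stood at 139.8 and 129 CPM in replicates 1 and 2 and at 104.9 and 96.7 CPM in replicates 3 and 4. The first of these pairs reached into the DMSO range and the second lay below it. Germ line marker sums were lower with BAY2402234, at 7833 to 9087 CPM against 10970 to 11720 CPM in DMSO. With dhod-1 RNAi they were 10160 and 10200 CPM in replicates 1 and 2 and 6062 and 4421 CPM in replicates 3 and 4. Their part in the falls of sod-1 was not tested. The call in this group (-0.28, SE 0.11, edgeR's adjusted p = 0.0246) was lost without replicate 3 (-0.23) or 4 (-0.20), without DMSO replicate 4 (-0.27), with the stricter filter (-0.19) and with groups fitted alone (-0.25), and without both replicates it was -0.09 (edgeR's adjusted p = 0.545).

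The mitochondrial manganese enzyme sod-2 (WBGene00004931; chromosome I, 8434550 to 8435807, plus strand) fell with BAY2402234. Its libraries held 78.9, 76.7, 96.4 and 71.7 CPM, all below the DMSO libraries at 109, 108, 104 and 104 CPM (-0.39, SE 0.10, edgeR's adjusted p = 0.00453). With dhod-1 RNAi sod-2 divided as sod-1 did: replicates 1 and 2 held 114 and 105 CPM and replicates 3 and 4 held 78.9 and 75.7 CPM, and the difference of -0.19 did not pass the test (edgeR's adjusted p = 0.125). With teriflunomide it rose from 94.9 ± 8.56 to 109.6 ± 4.48 CPM (0.21, SE 0.07, edgeR's adjusted p = 0.0341), with overlapping libraries. That call was lost under 11 of the alternatives, DESeq2 among them (edgeR with DESeq2 size factors gave 0.12). With doxycycline sod-2 was at 98.8 ± 6.28 CPM, a difference of 0.06 (SE 0.07) that did not pass the test. The germ line, intestine and muscle markers moved in these comparisons as given for sod-1. The part of these tissues in the changes of sod-2 was not tested. sod-1 shares 85 bp with the non-coding RNA C15F1.13 and sod-2 shares 21 bp with dpt-1, both on the opposite strand.

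**Figure D3:**
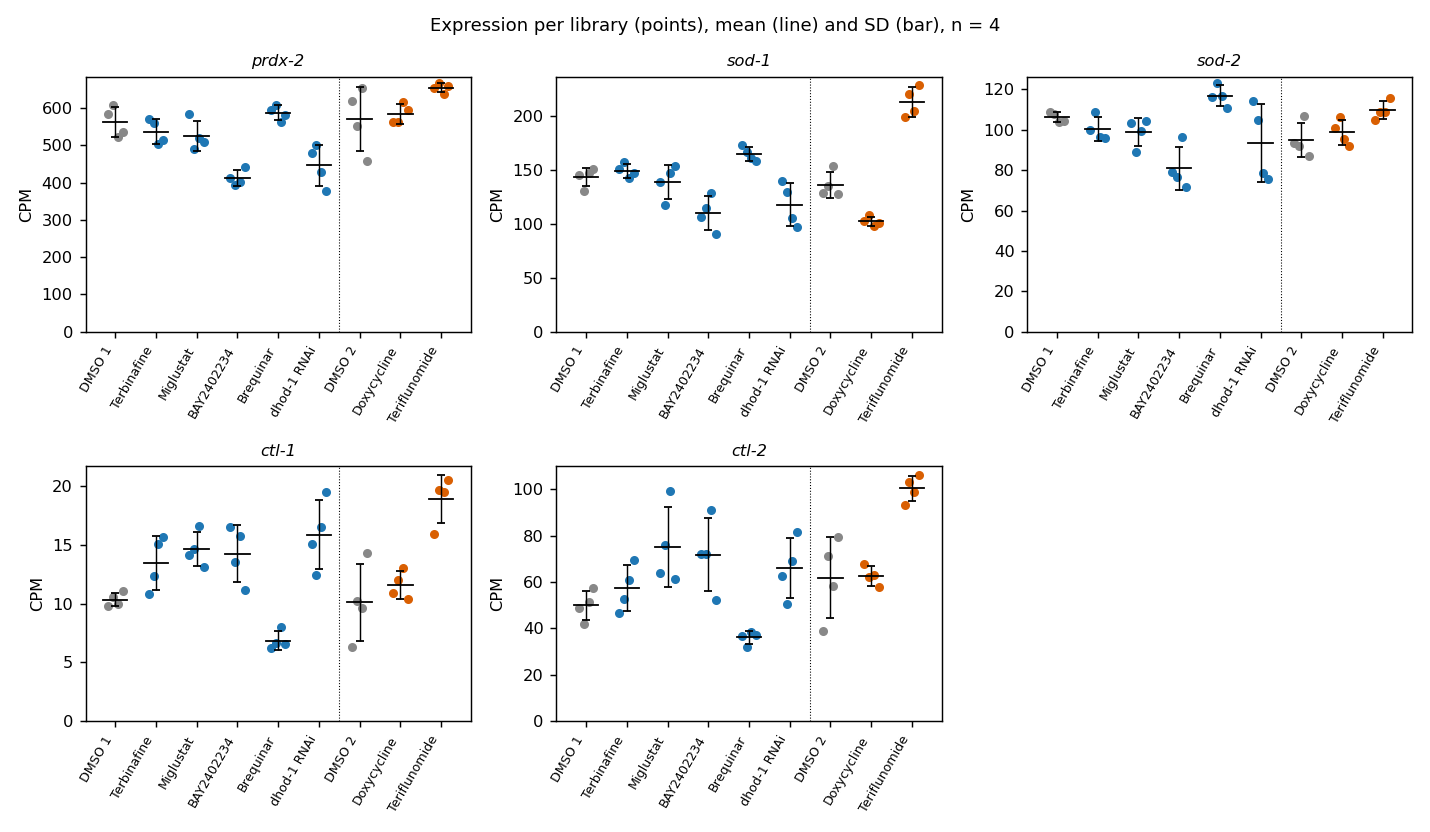
CPM of prdx-2, sod-1, sod-2, ctl-1 and ctl-2 in each library (points), with the mean (line) and SD (bar) of the 4 libraries of each group and the batches divided by the dotted line. Grey points are DMSO, blue points the treatments of batch 1 and orange points those of batch 2. For sod-1 the teriflunomide libraries (199 to 229 CPM) lie above all others, and for ctl-2 the brequinar libraries (32.1 to 38.5 CPM) lie lowest.

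The catalases ctl-1, which is cytosolic, and ctl-2, which is peroxisomal, convert hydrogen peroxide to water and oxygen. They lie next to each other and to ctl-3 on chromosome II, ctl-2 (WBGene00000831) at 14299556 to 14302027 and ctl-1 (WBGene00000830) at 14303568 to 14306260, both on the minus strand. They are close paralogs, so the division of reads between them is uncertain. ctl-2 also shares 65 bp with Y54G11A.7 on the opposite strand. In teriflunomide libraries ctl-1 stood at 15.9, 19.7, 19.5 and 20.6 CPM, against 6.32, 10.2, 9.62 and 14.3 CPM in DMSO, and rose by 0.90 on the log2 scale (SE 0.20, edgeR's adjusted p = 0.00478). ctl-2 stood at 93.4, 103, 98.8 and 106 CPM against 39.1, 71.4, 58.1 and 79.3 CPM, and rose by 0.70 (SE 0.17, edgeR's adjusted p = 0.0074). All teriflunomide libraries lay above all DMSO libraries, although the latter were widely spread. Both calls held in every alternative, at 0.73 to 1.12 for ctl-1 and 0.53 to 0.84 for ctl-2. The intestine markers were also higher: 5 of 7 rose and 1 fell, with sums of 2811 to 3197 CPM against 1400 to 2085 CPM and no marker at 0 in any library. Muscle markers rose as well, 6 of 6, with sums of 7283 to 8599 CPM against 3302 to 5654 CPM. The part of these tissues in the rise of the enzymes was not tested. With doxycycline ctl-1 gave 0.20 (SE 0.20) and ctl-2 0.02 (SE 0.17), and neither passed the test.

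The treatments of batch 1 divided over the catalases. With BAY2402234 ctl-1 was at 16.6, 13.5, 15.8 and 11.2 CPM and with dhod-1 RNAi at 15.1, 12.47, 16.5 and 19.5 CPM, above the DMSO libraries at 9.79, 10.6, 9.99 and 11.1 CPM. With brequinar it was at 6.20, 6.62, 8.04 and 6.59 CPM, below all of them. ctl-1 rose with BAY2402234 (0.46, SE 0.15, edgeR's adjusted p = 0.0144) and with dhod-1 RNAi (0.62, SE 0.15, edgeR's adjusted p = 0.00112), and fell with brequinar (-0.59, SE 0.15, edgeR's adjusted p = 0.01). The rise with dhod-1 RNAi was 0.41 (edgeR's adjusted p = 0.0588) without replicates 3 and 4. Of the 7 intestine markers 3 rose and 1 fell with BAY2402234 and 3 rose and 0 fell with dhod-1 RNAi. Their sums were 1425 to 1847 and 1692 to 2203 CPM, against 1546 to 1765 CPM in DMSO, and their part in the rises of both catalases was not tested.

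For ctl-2, BAY2402234 libraries held 72.0, 72.0, 91.1 and 52.2 CPM, dhod-1 RNAi libraries 62.7, 50.5, 69.3 and 81.6 CPM and DMSO libraries 48.97, 42.0, 51.4 and 57.4 CPM, with overlap in both cases. The rises of 0.52 (SE 0.17, edgeR's adjusted p = 0.015) and 0.40 (SE 0.17, edgeR's adjusted p = 0.0425) passed the test. The first was lost without BAY2402234 replicate 3 (0.40) or DMSO replicate 2 (0.46). The second was lost without any 1 of 6 libraries, and was 0.18 (edgeR's adjusted p = 0.521) without replicates 3 and 4. With brequinar ctl-2 was at 36.8, 32.1, 38.5 and 37.1 CPM, below every DMSO library, at a log2 difference of -0.47 that did not pass the test (edgeR's adjusted p = 0.064). It passed without DMSO replicate 2 (-0.55), with the stricter filter (-0.52) and when brequinar and DMSO were fitted alone (-0.47). Intestine markers were lower with brequinar, 3 of 7 having fallen, with sums of 1153 to 1359 CPM against 1546 to 1765 CPM in DMSO. Muscle marker sums were lower too, at 2795 to 3271 CPM against 4041 to 5272 CPM. Germ line marker sums were higher, at 12040 to 13710 CPM against 10970 to 11720 CPM. The part of these tissues was not tested.

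With miglustat both catalases stood above all DMSO libraries without passing the test over all genes. ctl-1 was at 14.2, 14.7, 16.6 and 13.2 CPM (log2 fold change 0.50, SE 0.15, edgeR's adjusted p = 0.136) and ctl-2 at 63.8, 76.0, 99.5 and 61.5 CPM (0.59, SE 0.17, edgeR's adjusted p = 0.115). With terbinafine ctl-1 was at 10.8, 12.4, 15.1 and 15.7 CPM (0.38, SE 0.15, edgeR's adjusted p = 0.27) and ctl-2 at 46.7, 52.6, 60.8 and 69.8 CPM (0.20, SE 0.17, edgeR's adjusted p = 0.679), both with libraries inside the DMSO range. A direct comparison of terbinafine with miglustat gave -0.12 (SE 0.15) for ctl-1 and -0.39 (SE 0.17) for ctl-2, and 0 of the 10 genes passed the test in edgeR (2.96% of all genes). By unadjusted p below 0.05 there were 2, and DESeq2 called 1, wdr-23.

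The gene cdr-1 (WBGene00000412; chromosome V, 15921309 to 15922820, plus strand) was described as a cadmium-responsive gene of the intestine and resembles glutathione S-transferases. It was nearly silent in both control groups, at 1.05, 1.87, 0.732 and 1.35 CPM in the DMSO libraries of batch 1 and 1.05, 0.964, 1.44 and 1.23 CPM in those of batch 2. In teriflunomide libraries it reached 154, 178, 188 and 144 CPM. The mean of 1.17 ± 0.21 CPM in DMSO became 166.1 ± 20.3 CPM, and cdr-1 rose by 7.14 on the log2 scale (SE 0.19, edgeR's adjusted p = 3.2e-10), with 7.06 to 7.25 over the alternatives. The next highest group mean was 7.49 CPM.

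With brequinar cdr-1 stood at 2.79, 5.60, 12.3 and 9.26 CPM. All 4 libraries lay above the DMSO libraries but were spread more than 4-fold among themselves, and cdr-1 rose by 2.58 on the log2 scale (SE 0.40, edgeR's adjusted p = 0.000157). With doxycycline it stood at 3.24, 2.33, 3.95 and 3.22 CPM, again without overlap, and rose by 1.44 (SE 0.18, edgeR's adjusted p = 1.02e-05). These calls held in every alternative in which cdr-1 was tested. Intestine markers were higher with doxycycline too (6 of 7 rose and 1 fell, with sums of 4050 to 4545 CPM), and their median log2 fold change was 1.61, against 1.26 with teriflunomide and -0.31 with brequinar. Muscle marker sums were 15060 to 17490 CPM with doxycycline and 7283 to 8599 CPM with teriflunomide, against 3302 to 5654 CPM in DMSO. With brequinar they were lower, at 2795 to 3271 CPM against 4041 to 5272 CPM. The part of these tissues in the rises of cdr-1 was not tested. The terbinafine libraries held 2.30, 1.61, 2.16 and 4.16 CPM, partly within the DMSO range (log2 fold change 1.03, SE 0.40, edgeR's adjusted p = 0.278). With BAY2402234 the value was 0.63 (95% interval -0.20 to 1.47), with dhod-1 RNAi 0.32 (-0.53 to 1.17) and with miglustat 0.29 (-0.57 to 1.15). The 3 inhibitors of dihydroorotate dehydrogenase thus gave cdr-1 means of 166.1 CPM (teriflunomide at 250 µM, batch 2), 7.49 CPM (brequinar at 500 µM) and 1.95 CPM (BAY2402234 at 500 µM). Teriflunomide differed from the others in dose and batch and was not tested against them.

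**Figure D4:**
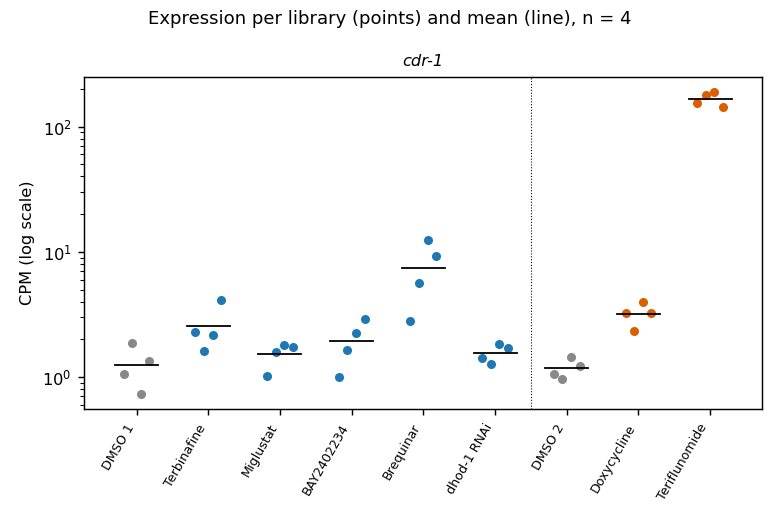
CPM of cdr-1 in each library (points) on a log axis, with the mean of each group as a line and the batches divided by the dotted line. Grey points are DMSO, blue points the treatments of batch 1 and orange points those of batch 2. The teriflunomide libraries lie at 144 to 188 CPM, the brequinar libraries at 2.79 to 12.3 CPM and the DMSO libraries at 0.732 to 1.87 CPM.

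BAY2402234 and brequinar were given at the same dose in the same batch and could be compared directly. Of the 10 genes 9 passed the test, 3 higher and 6 lower with BAY2402234, where 63.4% of all genes did (33.2% higher and 30.2% lower). Higher were ctl-1 (1.05, SE 0.15, edgeR's adjusted p = 4.55e-06), ctl-2 (0.99, SE 0.17, edgeR's adjusted p = 4.42e-05) and trxr-1 (0.18, SE 0.05, edgeR's adjusted p = 0.00743). Lower were cdr-1 (-1.94, SE 0.38), sod-1 (-0.58, SE 0.11), sod-2 (-0.53, SE 0.10), prdx-2 (-0.51, SE 0.08) and skn-1 (-0.37, SE 0.07), with edgeR's adjusted p from 1.88e-05 to 0.000184. The ninth gene was wdr-23 (-0.17, SE 0.06, edgeR's adjusted p = 0.0126), whose call was lost without BAY2402234 replicate 1 (-0.06) or 3 (-0.14) or brequinar replicate 4 (-0.13), and which was 0.02 with the stricter filter. For gcs-1 the 95% interval of the difference was -0.27 to 0.00. The median over all genes in this comparison was 0.16. Germ line marker sums were 7833 to 9087 CPM with BAY2402234 and 12040 to 13710 CPM with brequinar. Of the intestine markers 5 of 7 were higher with BAY2402234 and 1 lower, with sums of 1425 to 1847 against 1153 to 1359 CPM. Muscle marker sums were 4286 to 5899 CPM with BAY2402234 and 2795 to 3271 CPM with brequinar. The part of these tissues in the differences was not tested.

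BAY2402234 and dhod-1 RNAi, set against each other, gave 0 calls among the 10 genes in edgeR and 0 in DESeq2, where 44.1% of all genes passed, and 1 gene had an unadjusted p below 0.05. The 95% intervals were -0.15 to 0.12 for skn-1, -0.28 to 0.05 for prdx-2, -0.46 to 0.14 for ctl-1 and -0.50 to 1.13 for cdr-1. Differences within these bounds were not excluded. Without replicates 3 and 4 of dhod-1 RNAi, sod-2 (-0.45), sod-1 (-0.30) and prdx-2 (-0.26) were called lower with BAY2402234. Brequinar against dhod-1 RNAi gave 5 genes higher and 3 lower (64.3% of all genes, 27.9% and 36.4%), with ctl-1 at -1.21 (SE 0.15, edgeR's adjusted p = 1.66e-06), ctl-2 at -0.87 (SE 0.17, edgeR's adjusted p = 0.000159) and cdr-1 at 2.26 (SE 0.39, edgeR's adjusted p = 4.49e-05). Also higher with brequinar were sod-1 (0.48), prdx-2 (0.39) and skn-1 (0.35), with edgeR's adjusted p from 9.31e-05 to 0.000438. The call of sod-2 (0.32, edgeR's adjusted p = 0.00961) was lost with the stricter filter and without dhod-1 RNAi replicate 3, 4 or both (0.09). That of trxr-1 (-0.15, edgeR's adjusted p = 0.0231) was lost under 9 alternatives, and wdr-23 (0.04) and gcs-1 (0.11) did not pass. Doxycycline against teriflunomide gave 0 genes higher and 8 lower (74.2% of all genes, 36.3% and 37.9%). The largest of these were cdr-1 (-5.70, SE 0.17, edgeR's adjusted p = 1.46e-10), skn-1 (-1.10, SE 0.07, edgeR's adjusted p = 1.68e-08) and sod-1. Next came wdr-23 (-0.78, edgeR's adjusted p = 1.16e-07), ctl-1 (-0.70, edgeR's adjusted p = 0.00801) and ctl-2 (-0.68, edgeR's adjusted p = 0.00341), and the calls of both catalases were lost with the stricter filter. trxr-1 (-0.31) and gcs-1 (-0.17) lost theirs with library totals only, and gcs-1 also with DESeq2 and its size factors. With the stricter filter trxr-1 lost its call and gcs-1 was called higher at 0.13. For prdx-2 (-0.17) and sod-2 (-0.15) the difference did not pass. Germ line marker sums were 581.3 to 850 CPM with doxycycline and 8024 to 9291 CPM with teriflunomide. Those of muscle were 15060 to 17490 and 7283 to 8599 CPM, and those of intestine 4050 to 4545 and 2811 to 3197 CPM. In dhod-1 RNAi libraries germ line marker sums were 4421 to 10200 CPM and those of muscle 2310 to 2916 CPM. The sums of BAY2402234 and brequinar are given above. The part of these tissues in the differences was not tested.

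The surrounding pathway was followed through 10 lists with 89 further genes, of which 85 were matched and 79 tested in batch 1 and 80 in batch 2. Over all lists 2 genes rose and 0 fell with terbinafine, 1 rose and 0 fell with miglustat, 19 rose and 29 fell with BAY2402234, 3 rose and 7 fell with brequinar and 27 rose and 25 fell with dhod-1 RNAi. With doxycycline 41 rose and 24 fell, and with teriflunomide 33 rose and 12 fell. The shares of all genes called upward and downward were 23.2% and 23.6% with BAY2402234, 5.03% and 10.6% with brequinar, 31.3% and 30.1% with dhod-1 RNAi, 44.8% and 40.2% with doxycycline and 19% and 19.7% with teriflunomide. With terbinafine and miglustat 0.898% and 0.581% were called in either direction. The 3 calls of the study's own compounds were cdr-4 (1.51, SE 0.26, edgeR's adjusted p = 0.00234) and the aldehyde dehydrogenase alh-5 (1.41, SE 0.25, edgeR's adjusted p = 0.00299) with terbinafine, and the β-catenin bar-1 (0.97, SE 0.21, edgeR's adjusted p = 0.0316) with miglustat.

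**Figure D5:**
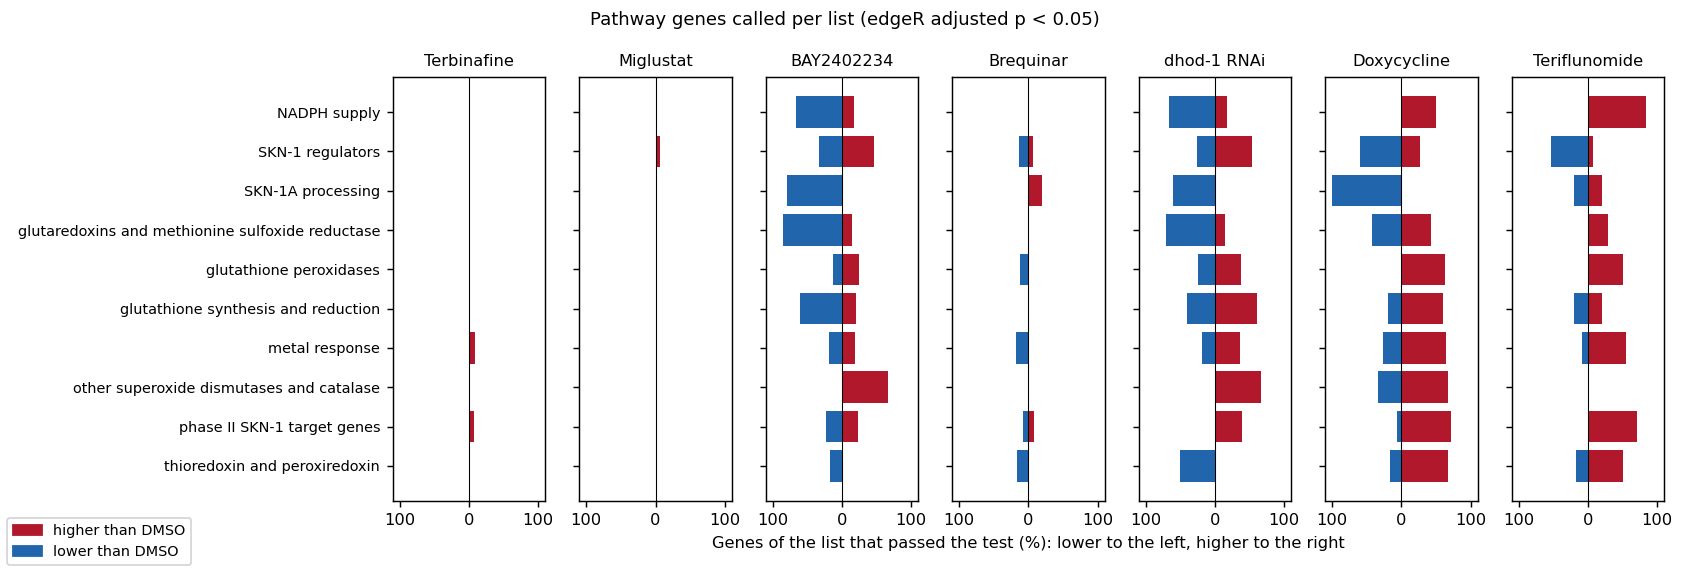
Share of the tested genes of each pathway list that passed the test, higher than DMSO to the right (red) and lower to the left (blue), in percent, for the 7 treatments. Lists differ in size, from 3 to 15 tested genes. With doxycycline all 5 tested genes of SKN-1A processing were lower, and with teriflunomide 10 of 14 phase II target genes were higher.

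Phase II genes of the SKN-1 response, such as glutathione S-transferases, were counted beside gcs-1, which rose in 0 of the 7 comparisons with DMSO. With teriflunomide 10 of 14 rose and 0 fell, with a list median of 0.90 beside -0.02 over all genes. The smallest p belonged to sdz-8 (3.90, SE 0.23; 21.2 ± 2.48 against 1.42 ± 0.51 CPM) and dhs-8, a short-chain dehydrogenase (3.05, SE 0.27; 11.1 ± 0.63 against 1.34 ± 0.30 CPM). With doxycycline 10 of 14 rose and 1 fell, with a median of 1.44 beside 0.23, led by the glutathione S-transferases gst-38 (2.98, SE 0.22) and gst-13 (2.58, SE 0.21). Intestine markers were higher in both treatments, with medians of 1.26 with teriflunomide and 1.61 with doxycycline and sums of 2811 to 3197 and 4050 to 4545 CPM, against 1400 to 2085 CPM in DMSO. Muscle markers had sums of 7283 to 8599 and 15060 to 17490 CPM, against 3302 to 5654 CPM in DMSO. Hypodermis markers had sums of 1292 to 1595 and 1565 to 2065 CPM, against 393.7 to 984.3 CPM. Those of the germ line were 8024 to 9291 and 581.3 to 850 CPM, against 7929 to 11030 CPM. The part of these tissues in the rises of the phase II genes was not tested. With BAY2402234 3 of 13 rose and 3 fell, among the latter gst-4, a widely used SKN-1 reporter gene, which went from 13.5 ± 1.38 to 5.42 ± 0.60 CPM (-1.31, SE 0.22, edgeR's adjusted p = 0.000144). With dhod-1 RNAi 5 of 13 rose and 0 fell, and with brequinar 1 rose, dhs-8 (1.07, SE 0.29, edgeR's adjusted p = 0.016), and 1 fell. The shares of all genes that rose and fell were 19% and 19.7% with teriflunomide and 44.8% and 40.2% with doxycycline. In batch 1 they were 23.2% and 23.6% with BAY2402234, 31.3% and 30.1% with dhod-1 RNAi and 5.03% and 10.6% with brequinar.

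Upstream of SKN-1, the 15 regulators included the p38 kinase cascade and the partners of WDR-23. With doxycycline 4 rose and 9 fell, and the smallest p belonged to cul-4, the scaffold of the ligase that WDR-23 serves (-1.72, SE 0.06; 31.4 ± 1.33 against 103.7 ± 5.83 CPM), and xrep-4 (-1.43, SE 0.06). The list SKN-1A processing, which covers the release of the endoplasmic reticulum form of SKN-1, fell in 5 of 5 genes, among them the protease ddi-1 (-1.92, SE 0.11; 37.3 ± 3.85 against 141.0 ± 19.1 CPM). Its median was -1.10 beside 0.23 over all genes, in the comparison in which the germ line markers fell. In dhod-1 RNAi libraries muscle marker sums were 2310 to 2916 CPM, against 4041 to 5272 CPM in DMSO. Those of the germ line were 4421 to 10200 against 10970 to 11720 CPM. The sums of 8 embryo markers, some of them near 0 CPM, were 40.07 to 68.94 against 12.97 to 17.74 CPM. The part of these tissues in the changes of the regulators was not tested. With dhod-1 RNAi 8 regulators rose and 4 fell, where 31.3% of all genes rose and 30.1% fell. The largest was tir-1, the adaptor at the head of the p38 cascade (3.54, SE 0.37, edgeR's adjusted p = 2.05e-07; 459.2 ± 178.9 against 39.4 ± 7.07 CPM), followed by the kinase nsy-1 (1.24, SE 0.15, edgeR's adjusted p = 5.25e-07). With teriflunomide 1 regulator rose and 8 fell, where 19% of all genes rose and 19.7% fell. The shares with doxycycline were 44.8% and 40.2%. Embryo marker sums were 14.37 to 16.55 CPM with teriflunomide and 17.07 to 20.68 CPM with doxycycline, against 30.99 to 62.17 CPM in DMSO. Intestine and muscle marker sums were higher than in DMSO with both. The part of these tissues in the changes of batch 2 was not tested.

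Of the 11 tested genes of the metal response list, which holds the relatives of cdr-1, 7 rose and 3 fell with doxycycline and 6 rose and 1 fell with teriflunomide. With dhod-1 RNAi 4 rose and 2 fell, with BAY2402234 2 rose and 2 fell, and with brequinar 0 rose and 2 fell. Among all genes 44.8% rose and 40.2% fell with doxycycline, and 19% and 19.7% with teriflunomide. The shares were 31.3% and 30.1% with dhod-1 RNAi, 23.2% and 23.6% with BAY2402234 and 5.03% and 10.6% with brequinar. Intestine marker sums were 4050 to 4545 CPM with doxycycline and 2811 to 3197 CPM with teriflunomide. They were 1400 to 2085 CPM in DMSO, and their part in the rises was not tested. With teriflunomide cdr-4 rose from 17.1 ± 7.57 to 970.5 ± 165.3 CPM (5.83, SE 0.32, edgeR's adjusted p = 2.22e-07) and cdr-2 from 8.67 ± 1.77 to 126.5 ± 28.1 CPM (3.87, SE 0.21, edgeR's adjusted p = 2e-07). The other tested relatives, cdr-6 (0.93) and cdr-7 (0.95), named after their values were seen, also rose. With doxycycline cdr-2 rose by 3.40 (SE 0.20, edgeR's adjusted p = 1.31e-08). Brequinar, which raised cdr-1, gave 0.26 for cdr-4 and 0.03 for cdr-2, neither of which passed the test. The metallothionein mtl-1 rose with BAY2402234 (2.68, SE 0.53, edgeR's adjusted p = 0.00064; 34.6 ± 22.8 against 5.38 ± 2.24 CPM) and the ferritin ftn-1 fell with brequinar (-2.14, SE 0.50, edgeR's adjusted p = 0.00668).

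Of all genes 19% rose and 19.7% fell with teriflunomide (median -0.02), and 44.8% rose and 40.2% fell with doxycycline (median 0.23). The shares were 23.2% and 23.6% with BAY2402234, 31.3% and 30.1% with dhod-1 RNAi and 5.03% and 10.6% with brequinar. Intestine and muscle markers were higher with teriflunomide and doxycycline, and their part in the rises below was not tested. Of the enzymes that supply NADPH, 5 of 6 rose and 0 fell with teriflunomide (median 0.80), led by transaldolase, tald-1 (1.05, SE 0.09), and transketolase, tkt-1 (0.81, SE 0.10). With doxycycline idh-1 (0.85, SE 0.12), tkt-1 (0.68, SE 0.10) and tald-1 (0.59, SE 0.09) rose as well. The other enzymes of the list did not pass the test there. With BAY2402234 and with dhod-1 RNAi 1 of these enzymes rose and 4 fell. The one that rose in both was nnt-1, the mitochondrial transhydrogenase (2.34, SE 0.36, and 2.02, SE 0.36). Glutathione peroxidases rose in 5 of 8 genes with doxycycline and 4 of 8 with teriflunomide, where gpx-1 went from 8.89 ± 2.00 to 32.8 ± 2.24 CPM (1.88, SE 0.14, edgeR's adjusted p = 3.11e-06). Of 6 thioredoxin and peroxiredoxin genes 4 rose and 1 fell with doxycycline and 3 rose and 1 fell with teriflunomide, while 0 rose and 3 fell with dhod-1 RNAi and 0 rose and 1 fell with BAY2402234 and with brequinar. The thioredoxin trx-3 fell with brequinar from 5.94 ± 1.58 to 0.855 ± 0.22 CPM (-2.79, SE 0.28, edgeR's adjusted p = 2.9e-06), with teriflunomide (-2.19, SE 0.29) and with dhod-1 RNAi (-1.42, SE 0.26). With doxycycline trx-3 rose by 1.54 (SE 0.27), from 7.01 ± 1.24 to 20.4 ± 5.8 CPM. The thioredoxin trx-2 rose with doxycycline (0.68, SE 0.07). Mitochondrial peroxiredoxin prdx-3 fell with BAY2402234 (-0.44, SE 0.07) and dhod-1 RNAi (-0.51, SE 0.07) and rose with doxycycline (0.59, SE 0.07) and teriflunomide (0.33, SE 0.07). Of 7 glutaredoxin and related genes 6 fell with BAY2402234 and 5 with dhod-1 RNAi, while sesn-1 rose in both (0.82, SE 0.14, and 0.91, SE 0.14). Of 5 genes of glutathione synthesis and reduction, 1 rose and 3 fell with BAY2402234, 3 rose and 2 fell with dhod-1 RNAi, 3 rose and 1 fell with doxycycline, and 1 rose and 1 fell with teriflunomide. Among them gss-1 fell with BAY2402234 (-0.44, SE 0.08) and doxycycline (-0.57, SE 0.07). The cystathionase cth-1 rose with dhod-1 RNAi (1.63, SE 0.21), BAY2402234 (1.01, SE 0.21) and doxycycline (1.98, SE 0.41), and fell with teriflunomide (-1.53, SE 0.41). In batch 2 cth-1 was widely spread in DMSO, at 63.4 ± 51.9 CPM, against 21.9 ± 0.85 CPM with teriflunomide and 250.2 ± 28.1 CPM with doxycycline. Of the other superoxide dismutases and catalases 3 were tested in each batch. These were sod-4, sod-5 and ctl-3 in batch 1 and sod-3, sod-4 and ctl-3 in batch 2. Of them 2 rose with BAY2402234, 2 with dhod-1 RNAi and 2 with doxycycline, where 1 fell. The superoxide dismutase sod-4 rose with BAY2402234 (0.92, SE 0.19) and dhod-1 RNAi (0.74, SE 0.19), and ctl-3 fell with doxycycline (-1.11, SE 0.20). The scarce sod-5 rose with dhod-1 RNAi, from 0.155 ± 0.06 to 1.17 ± 0.40 CPM (2.88, SE 0.53, edgeR's adjusted p = 9.04e-05).

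The genes most alike in pattern were found by Pearson correlation of log2 CPM over the 36 libraries, after the mean of each batch was subtracted, among 16511 genes. The libraries share treatments and controls, so the values are descriptive. For skn-1 the highest were fath-1 (0.98), ZK809.5 (0.98) and pdp-1 (0.98), and for wdr-23 they were pygo-1 (0.94), ddx-23 (0.94) and smc-6 (0.94). For gcs-1 they were ears-1 and tars-1, both aminoacyl-tRNA synthetases (0.82 each), and Y82E9BR.18 (0.82). For trxr-1 they were C16A3.6 (0.89), mtl-1 (0.85) and nog-1 (0.84), and for prdx-2 C23G10.2 (0.90), gpi-1 (0.90) and pgm-1 (0.89). For sod-1 they were sucl-2 (0.93), ero-1 (0.92) and osgn-1 (0.91), and for sod-2 the mitochondrial chaperonin hsp-60 (0.93), mrpl-16 (0.90) and the glutathione reductase gsr-1 (0.89). ctl-1 and ctl-2, which are neighbouring paralogs, were each the other's closest match (0.93). Whether the uncertain division of reads between them bears on this value was not tested. For cdr-1 they were cyp-13A6 (0.96), vem-1 (0.96) and ugt-33 (0.95).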

How the data were processed

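The authors deposited raw counts per gene for 36 libraries and 27782 identifiers, and these counts were used as deposited. Per the submitters' processing notes, FastQC, STAR 2.7.3a, WBcel235 and DESeq2 1.40.2 were used. How reads were counted, whether by strand and on which annotation release, is not given in the sources used here. Names and positions came from a reference annotation of WBcel235, which named 25676 identifiers.

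Genes were kept by filterByExpr with a minimum count of 10 (15142 in batch 1, 15695 in batch 2), scaled by TMM and fitted per batch with edgeR 4.0.16 in R 4.3.3 (robust quasi-likelihood F test, all groups of a batch in 1 fit). Benjamini-Hochberg adjustment ran across every tested gene, and calls needed an adjusted p below 0.05. Each SE is the log2 fold change divided by the root of F, and 95% intervals came from the SE and the fit's degrees of freedom. Alternatives were DESeq2 1.42.0, its size factors in edgeR, no filter, a stricter filter (5 CPM in 4 libraries), a replicate block, the compared groups alone and each library left out. Library totals only, TMM over all 36 libraries, and both dhod-1 RNAi replicates 3 and 4 left out were compared as well, the first 2 of these chosen after the data were seen. The scripts were tested on simulated data.

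The rule for named genes takes all 10 genes, up to 2 called genes of smallest p per list and comparison, and the 3 genes most alike in pattern. Of these, the text gives values where a gene passed the test or where its interval is of use, and the plot of fold changes holds the rest of the values against DMSO. List counts and list genes are given for the main comparisons with DMSO, not for all. For cth-1, trx-3 and tald-1 further calls outside the rule are given, chosen after their values were seen. The genes and lists were chosen with earlier results of these data known. The names sup-45, cdr-5, numr-1, numr-2 and opt-2 were not matched. Libraries within a group all differed by more than counting noise (lowest chi-square per degree of freedom 3.73).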

Additional observations from a re-analysis of the deposited data

Results flagged for a closer look

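One value among 90 groups of 4 libraries (10 genes in 9 groups) lay far from the other 3 of its group: wdr-23 in brequinar replicate 4, at 116.44 CPM, where the other 3 brequinar libraries lay between 102.52 and 104.36 CPM. The gap was 0.868 of the group's range, above Dixon's critical value for 4 values. Chance alone puts about 1 in 20 groups past that value.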

How the results depend on the processing

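Of the 1941 recalculated values of single genes, 7 turned direction with a call on at least 1 side. With the stricter filter these were wdr-23 for BAY2402234 against DMSO (0.13) and against brequinar (0.0177), gcs-1 for doxycycline against DMSO (0.18) and teriflunomide (0.13), trxr-1 for doxycycline against DMSO (0.0395) and sod-2 for doxycycline against teriflunomide (0.15). With library totals only it was wdr-23 for BAY2402234 against DMSO (0.16). gcs-1 was called in both directions in both of its comparisons, lower with the usual filter and higher with the stricter one. In a further 98 the sign turned without a call on either side. In the doxycycline comparison the median over all genes moved between 0.02 and 0.31 with the scaling. It was 0.15 with the stricter filter, over the genes that this filter kept. With that filter gcs-1 against DMSO moved upward from -0.12 to 0.18, trxr-1 from -0.27 to 0.0395 and sod-1 from -0.41 to -0.11. The cause of the turned directions was not tested.

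DESeq2 called 241 genes with terbinafine (136 in edgeR), 264 with miglustat (88), with 1 of the 10 genes, and 842 for terbinafine against miglustat (448), with 1 of the 10 genes. The stricter filter gave 51 with miglustat, 246 for terbinafine against miglustat and 5920 for BAY2402234 against brequinar (9598). Fitting the compared groups alone gave 39 with miglustat, 3749 with brequinar (2370), with 6 of the 10 genes, and 4325 for BAY2402234 against dhod-1 RNAi (6677). Without both dhod-1 RNAi replicates 3 and 4, 1 of the 10 genes and 5132 genes in all (9295) were called against DMSO, 3 of the 10 against BAY2402234, and 5941 genes (9739) for brequinar against dhod-1 RNAi.

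Leaving out 1 library at a time gave 76 to 172 genes with terbinafine, 22 to 254 with miglustat, 1154 to 2541 with brequinar, 213 to 444 for terbinafine against miglustat and 4596 to 9148 with teriflunomide (6087 with all libraries), where 9148 was the count without DMSO replicate 1. Of the 10 genes it gave 3 to 6 with dhod-1 RNAi (3 without replicate 3 or 4) and 0 to 1 for BAY2402234 against dhod-1 RNAi.

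In 0 of the 12 comparisons was every correlation of same-numbered libraries over 0.1, so the numbers were not taken to pair the samples. In 2 comparisons 3 of 4 were: BAY2402234 against DMSO (0.05 to 0.52, with 3 libraries closest to their own number) and brequinar against dhod-1 RNAi (0.07 to 0.38, with 1). With a replicate block 822 genes were called for terbinafine against miglustat, and the other counts stayed within 1.5 times. Of the single genes, gcs-1 with doxycycline (-0.12) and sod-2 with teriflunomide (0.21) lost their call under the block, and ctl-2 with brequinar (-0.47) gained one. Depth, at 19253276 counts or more per library, limits cdr-1 most, which had 14 to 37 counts in each DMSO library.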
